A study of Mus musculus with 9 samples.

Results

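Small nucleolar RNA (snoRNA) genes were examined in an ATAC-seq series of heart muscle cells from newborn, juvenile and adult mice. The genes were the 27 of 33844 transcription start site (TSS) regions whose symbol begins with Snora or Snord. All 27 passed the filter on low counts, which kept 33747 regions. The mice were of the outbred stock CD1 (ICR), and 3 libraries each were made on day 1 (P1), day 14 (P14) and day 56 (P56) after birth. Each library pooled hearts, 12 of newborns or 6 to 7 at the later stages, and nuclei were sorted with an antibody to Pcm1, a protein of the cardiomyocyte nuclear envelope. The shared growth protocol mentions surgery and does not say whether these hearts had any, and the labels give neither batch nor genotype. ATAC-seq counts the places where a transposase could enter DNA, so the values below are accessibility at a gene's start and not RNA levels.

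snoRNAs are short nuclear RNAs that guide chemical modification of other RNAs. Box C/D members (Snord) direct methylation of ribose, and box H/ACA members (Snora) direct conversion of uridine to pseudouridine, mainly in ribosomal RNA. Most mammalian snoRNAs lie in introns of host genes, often genes of the translation machinery, and are trimmed out of the spliced intron, so their transcription starts at the host's promoter. Snord115 and Snord116 are repeated many times inside Snhg14, a long transcript of the Prader-Willi region made from the paternal chromosome, chiefly in neurons, and they have no known target in ribosomal RNA.

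Hosts were found as the RefSeq gene (GRCm38.p6) whose interval holds the snoRNA gene, which gave 25 different hosts for 26 members. A class of 5 members lay in ribosomal protein genes: Snora62 in Rpsa, Snord15b in Rps3, Snord73a in Rps3a1, Snord83b in Rpl3 and Snord72 in Rpl37. A further 11 lay in other housekeeping hosts, among them Snord37 in Eef2 (translation elongation), Snord66 in Eif4g1 and Snora28 in Eif5 (translation initiation), Snord14e in Hspa8 (a chaperone), Snord82 in Ncl (nucleolin) and Snord111 in Sf3b3 (splicing). That class also held Snora20 in Tcp1, Snord8 in Chd8, Snord92 in Wdr43 and Snord123 in Snhg18. Snord116l11 and Snord116l17 lay in Snhg14, and the other 9 lay in other hosts or in none. These were Snora23 in Ipo7, Snora31 in Tpt1, Snora30 in Srcap, Snord7 in AA465934, Snora2b in Kansl2, Snord17 in Snx5, Snord23 in Nop53, Snora47 in Zbed3, and Snord89 outside any gene. RefSeq names no gene with a Snord115 symbol, so the imprinted repeats are represented by Snord116 and, below, by unnamed snoRNA genes of the same interval.

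The hosts differ in the DNA at their own starts, and the 4 stretches below show the contrast between the hosts of 3 members and the host of the imprinted repeats. Each runs 5′ to 3′ on the gene's strand from 180 bases before the annotated start through its first 20 bases, in RefSeq's sequence of GRCm38.p6, and capitals mark every CG. The motif CG reads the same on both strands.
Eef2 chr10:81176451-81176650 (+ strand): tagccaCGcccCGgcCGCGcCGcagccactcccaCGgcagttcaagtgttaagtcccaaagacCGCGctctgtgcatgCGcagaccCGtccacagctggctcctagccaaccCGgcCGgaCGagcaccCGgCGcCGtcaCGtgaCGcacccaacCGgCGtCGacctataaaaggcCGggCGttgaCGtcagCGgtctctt
Rpsa chr9:120127586-120127785 (+ strand): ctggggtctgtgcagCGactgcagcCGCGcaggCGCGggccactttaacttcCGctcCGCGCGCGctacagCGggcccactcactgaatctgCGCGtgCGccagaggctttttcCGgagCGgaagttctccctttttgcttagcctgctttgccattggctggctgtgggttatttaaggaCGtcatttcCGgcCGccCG
Kansl2 chr15:98534250-98534449 (- strand): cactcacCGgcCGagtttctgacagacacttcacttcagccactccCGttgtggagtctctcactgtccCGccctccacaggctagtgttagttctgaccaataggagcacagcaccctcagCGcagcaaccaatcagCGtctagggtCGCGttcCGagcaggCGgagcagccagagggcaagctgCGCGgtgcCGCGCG
Snhg14 chr7:60450158-60450357 (- strand): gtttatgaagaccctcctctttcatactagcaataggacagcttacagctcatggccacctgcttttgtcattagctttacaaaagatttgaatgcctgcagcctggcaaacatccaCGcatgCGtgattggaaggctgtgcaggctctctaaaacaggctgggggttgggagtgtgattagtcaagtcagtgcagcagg
The Eef2 stretch held 25 CG, that of Rpsa 20, that of Kansl2 15 and that of Snhg14 2. The Snhg14 stretch lies at the annotated start of the gene, 588399 bp from Snord116l17 and 547917 bp from Snord116l11. Whether transcription of these copies begins there was not tested. Promoter sequence was at hand for 21 of the 25 hosts, taken as 250 bases before to 50 after the start. These hosts had a median of 24 CG in those 300 bases, against 7 over all 32851 promoters of the reference, and a median GC content of 62.0% against 52.7%. Counts of 15 or more CG were found in 19 of the 21 hosts (90.5%), against 34.6% of all promoters and 46.8% of the 21263 protein-coding ones, which had a median of 13 CG and a GC content of 56.3%. The exceptions were Snhg14 with 2 and Zbed3, the host of Snora47, with 4. No sequence of the snoRNA genes themselves was used.

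Many snoRNA genes of RefSeq had no row in the table. Named Snora and Snord genes numbered 133 in the annotation, and 27 of them (20.3%) were rows: 5 of 37 with a ribosomal protein host (13.5%), 11 of 46 with another housekeeping host (23.9%), 2 of 17 Snord116 copies (11.8%) and 9 of the other 33 (27.3%). Of 1208 unnamed snoRNA genes, 610 (50.5%) were rows. The lowest mean over the 9 libraries in the deposited table was 10 counts. Named genes with a row lay farther from other genes' ends than those without, at a median of 2356 bp against 577 bp, and 9 of 27 lay within 1 kb of such an end, against 73 of 106. Among the 26 with a host, the median distance to the host's start was 4277 bp, so most regions sat inside a gene body, well away from the promoter that serves them. For hosts without a known start, among them those of Snord14e, Snord83b and Snord23, the distance was to the nearer end of the gene.

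P1 libraries held 1414979 to 2167369 TSS counts, P14 libraries 481217 to 893032 and P56 libraries 874639 to 1468352. The 27 members together held 160 to 870 counts in a library. Levels are given as CPM, the count scaled by the library's total and by edgeR's TMM factor for that library. That factor ran from 0.906 in P56 replicate 2 to 1.063 in P1 replicate 1. Summed CPM over all regions therefore differed, at 1104250 and 940623 in these libraries, and a CPM difference between libraries includes the factor. A single count was worth 0.435 to 2.11 CPM, most at P14, so single members at P14 rested on few counts. Pcm1-sorted nuclei carried accessible starts of all 8 cardiomyocyte markers, whose levels summed to 405 to 827 CPM in P1 libraries, 630 to 764 CPM in P14 libraries and 704 to 1838 CPM in P56 libraries. The highest value belonged to P56 replicate 2 and the lowest to P1 replicate 1. Of these markers, 4 (Myh6, Tnnt2, Tnni3 and Ttn) were higher at P56 than at P1, at an adjusted p below 0.05 by edgeR. Over all regions 1.72% were called higher in this comparison. P56 and P1 libraries overlapped for Myh6, Tnnt2 and Ttn, and did not for Tnni3. None of the 22 markers of endothelial cells, fibroblasts, smooth muscle and pericytes, leukocytes and neurons was at 0 in any library, and none passed the test in that comparison, with 3 at an unadjusted p below 0.05 by edgeR and 0 called by DESeq2 or limma-voom. The most accessible 10% of regions took 32.6% to 33.3% of the CPM in P1 libraries, 34.5% to 35.9% in P14 libraries and 35.9% to 38.6% in P56 libraries. The part of these shifts in the results below was not tested, and fewer cells of a type cannot be told apart from a change in each cell.

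The members were mostly weakly accessible. Their median level was 12.1 CPM, against 18.9 CPM over all regions tested, and 5 of 27 lay above that median: Snord23 (41.2 CPM), Snord37 (39.9), Snord15b (21.4), Snora31 (20.0) and Snora47 (19.7). The lowest were Snora23 (8.0 CPM), Snord116l17 (8.2) and Snord116l11 (8.7), whose levels did not differ beyond the spread between libraries. The 17 hosts with a region of their own had a median of 33.1 CPM, with 15 above the median of all regions. In 15 of the 18 members whose host was tested, the member's level was below the host's. The other 8 hosts (Ncl, Nop53, Rps3, Rps3a1, Sf3b3, Snhg18, Tcp1 and Tpt1) were not analysed here.

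**Figure D1:**
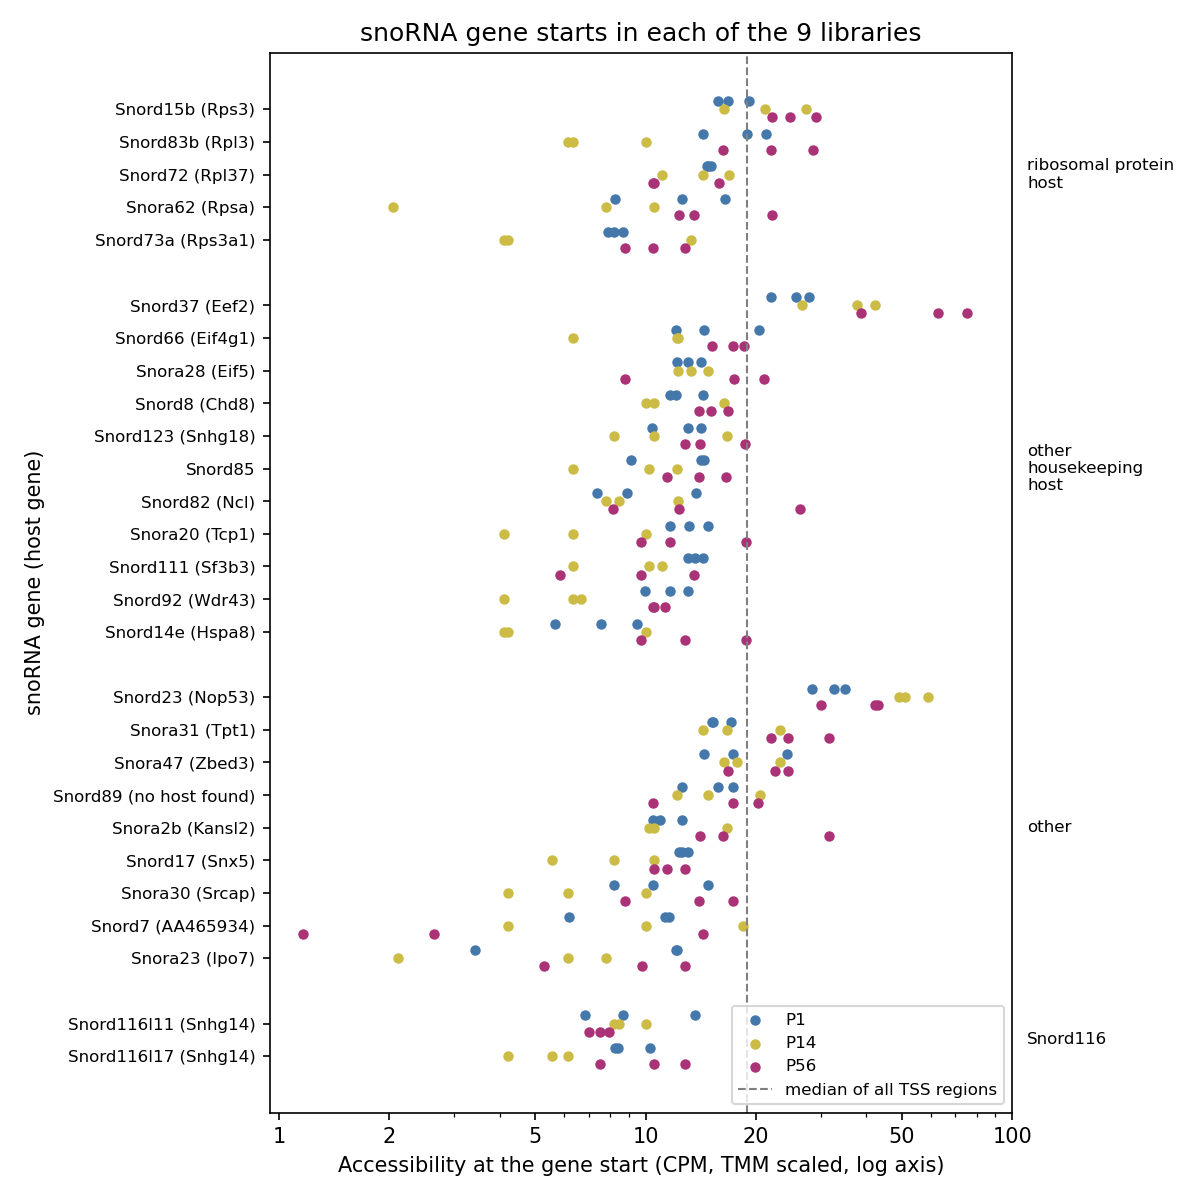
Accessibility at the start of each of the 27 snoRNA genes (CPM, log axis), with 1 point per library and the host, where given, in brackets, grouped by host class. Most points lie left of the dashed line, the median of all TSS regions at 18.9 CPM, while Snord37 and Snord23 lie to its right in all 9 libraries.

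Housekeeping-hosted members stood above the Snord116 copies in every library. Their median level, ribosomal protein and other housekeeping hosts together, was 13.7, 13.4 and 13.4 CPM in the P1 libraries, 11.1, 7.38 and 10.2 CPM at P14, and 12.3, 16.9 and 14.0 CPM at P56. The Snord116 median was 8.47, 8.57 and 11.03 CPM at P1, 7.77, 6.33 and 7.17 CPM at P14, and 9.25, 7.52 and 9.90 CPM at P56. The ratio of the 2 medians ranged from 1.17 in P14 replicate 2 to 2.25 in P56 replicate 2. With the 22 unnamed snoRNA genes of the Snhg14 interval added to the 2 named copies, the ratio ran from 0.70 to 2.5, and it was 1 or below in all 3 P14 libraries. The order of the classes therefore depended on 2 copies, with means of 10.9 and 10.3 counts per library. Reads that match several near-identical copies may be split or dropped, and how they were counted is not given in the sources used here, so levels of the repeats are uncertain.

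**Figure D2:**
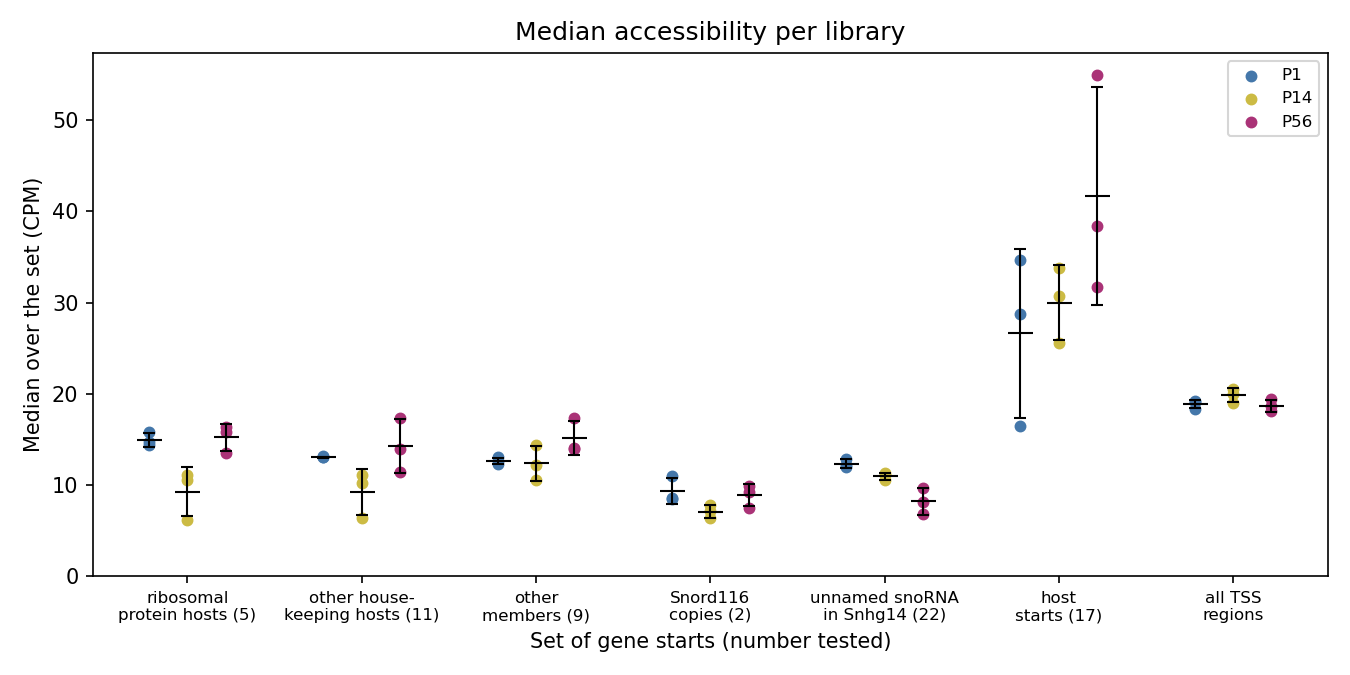
Median accessibility (CPM) of each set of gene starts in each of the 9 libraries, by stage, with black bars for the mean and SD over 3 libraries. The unnamed snoRNA genes of Snhg14 sit between 12.0 and 12.9 CPM at P1 and between 6.77 and 9.69 CPM at P56, while the medians of all regions stay between 18.1 and 20.5 CPM.

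Adult and newborn cardiomyocytes were compared to follow accessibility over maturation. Summed over the 27 members, accessibility was 411, 537 and 452 CPM in the P56 libraries, against 378, 363 and 378 CPM in the P1 libraries. Sums over all regions were also higher at P56 (1015060 to 1104250 CPM) than at P1 (940623 to 968809 CPM). As a share of a library's TSS counts, the members held 0.0404%, 0.0486% and 0.0444% at P56, against 0.0401%, 0.0375% and 0.0395% at P1, so P56 replicate 1 and P1 replicate 1 were close. Of single members, 1 rose at P56, Snord37, and none fell, by edgeR's quasi-likelihood test with a Benjamini-Hochberg adjusted p below 0.05. Over all regions 2.53% were called, 1.72% higher and 0.806% lower, so 1 of 27 is near the background. In the fitted log2 fold changes, 20 of 27 members were above 0, with a median of 0.23, against -0.01 over all regions. At an unadjusted p below 0.05 by edgeR there were 6 of 27 members, all higher at P56. Of all 33747 regions, 7278 (21.6%) had such a p in either direction, and 3802 of these were higher. The libraries of P56 and P1 did not overlap for 6 members, all higher at P56, against 10.9% of all regions higher and 13.2% lower.

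The level of a region moved with its change, and the members were low. In the lowest quartile of regions by mean CPM the median log2 fold change was -0.39 and 19.6% of regions were above 0, while in the highest quartile the median was 0.26 and 78.9% were above 0. The lowest quartile held 14 members, of which 8 were above 0 with a median of 0.11, and the second quartile held 8 members, of which 7 were above 0. The direction of the members as a group also rested on libraries: with P1 replicate 1 and P56 replicate 2 both left out, 11 of the 21 members then tested were above 0 and the median was 0.05, and without P56 replicate 2 alone the median was 0.09. The 2 libraries were set aside together because earlier results showed them to stand apart.

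Snord37, the member that rose, is a box C/D gene of 53 bp at chr10:81178961-81179013, inside Eef2 with its middle 2356 bp from the Eef2 start, whose promoter is shown above. It had 38.8, 75.2 and 62.9 CPM in the P56 libraries, against 25.6, 21.9 and 27.8 CPM in the P1 libraries. The stages did not overlap, and P56 replicate 1 was the lowest of the adult libraries. The log2 fold change was 1.22 ± 0.253 (SE; 95% interval 0.73 to 1.72; adjusted p = 0.0106, edgeR), a 2.34-fold higher level. At P14 it had 37.8, 42.2 and 26.6 CPM, which overlapped P1 and P56, and differed from neither at the threshold. The call was lost without P1 replicate 2 (log2 fold change 1.138, adjusted p = 0.0620) and without P56 replicate 2 (0.98, adjusted p = 0.0637). It held with P1 replicate 1 and P56 replicate 2 both left out (0.97, adjusted p = 0.0170). The nearest deposited peak was 70002 bp away.

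Eef2 itself, the factor that moves the ribosome along the message, showed the same direction at its own start. It had 43.2, 79.01 and 47.8 CPM in the P56 libraries, against 10.4, 28.8 and 41.0 CPM in the P1 libraries. Here too the stages did not overlap, but the P1 libraries were widely spread. The log2 fold change was 1.12 ± 0.316 (SE; adjusted p = 0.0485, edgeR). The width of the TSS regions is not given in the sources used here, so whether the Snord37 and Eef2 regions share reads is unknown.

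**Figure D3:**
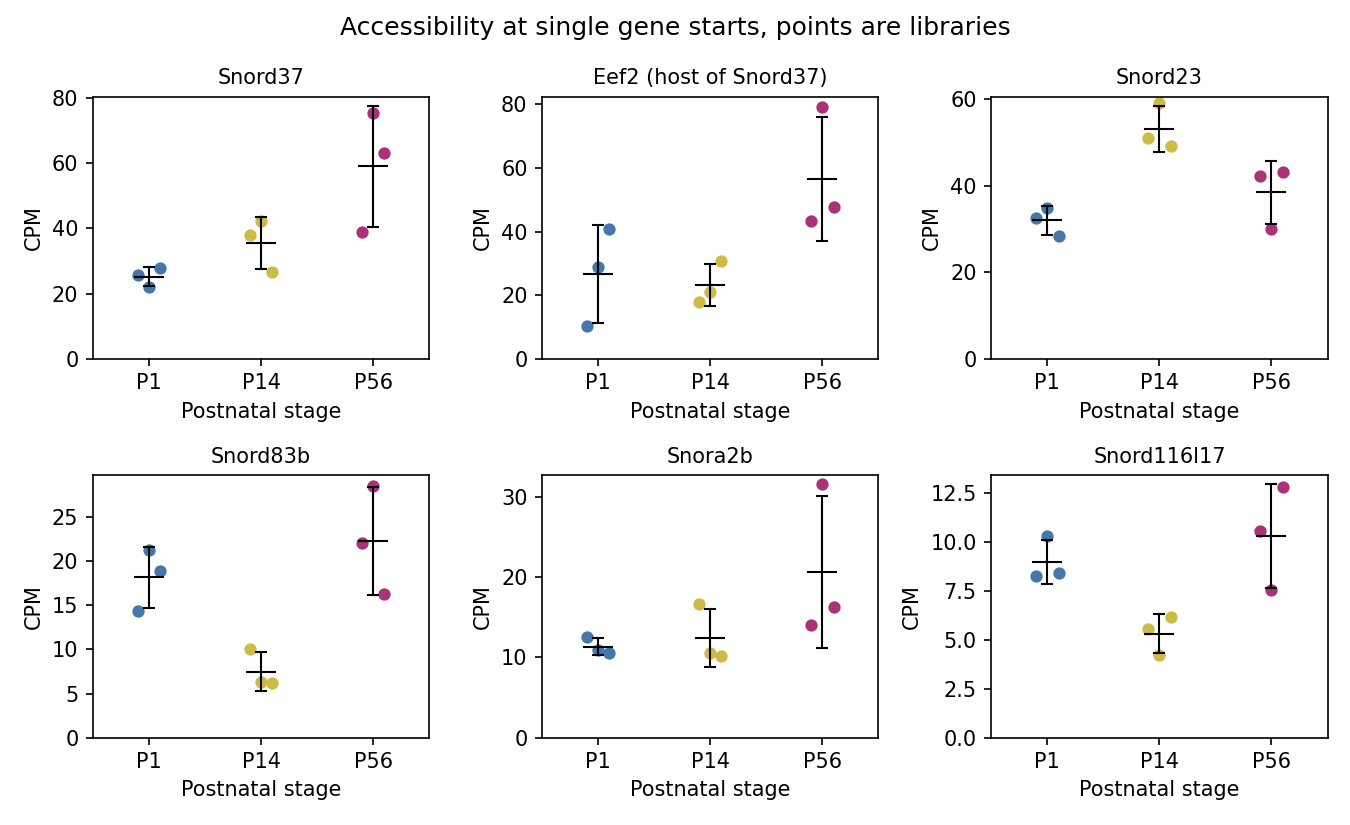
Accessibility (CPM) at 5 snoRNA gene starts and at Eef2, the host of Snord37, in each library by stage, with black bars for the mean and SD over 3 libraries. Snord37 is higher in the 3 P56 libraries (38.8 to 75.2 CPM) than in the 3 P1 libraries (21.9 to 27.8 CPM), and Snord83b is lowest at P14 (6.15 to 10.0 CPM).

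The other housekeeping-hosted members have hosts of several kinds, among them genes of translation, splicing and protein folding. Class medians of the log2 fold change at P56 against P1 were 0.37 over the 5 with a ribosomal protein host (4 above 0) and 0.26 over the 11 with another housekeeping host (9 above 0). With P1 replicate 1 and P56 replicate 2 both left out, they were 0.079 over 4 members and -0.086 over the 9 that then passed the filter, so the direction of the second did not hold.
Snord14e, in the chaperone gene Hspa8, had 9.69, 18.8 and 12.8 CPM at P56, against 5.65, 7.54 and 9.45 CPM at P1. The stages did not overlap, but the log2 fold change of 0.91 ± 0.344 did not pass (adjusted p = 0.127, edgeR).
Its host had 0.96 ± 0.282 (adjusted p = 0.0573, edgeR).
Snord15b, in the ribosomal protein gene Rps3, had 29.1, 24.8 and 22.1 CPM at P56, against 19.1, 15.8 and 16.8 CPM at P1. The adult libraries were all above the newborn ones, and the log2 fold change of 0.55 ± 0.253 did not pass (adjusted p = 0.199, edgeR). Snord66, in the initiation factor gene Eif4g1, had 18.5, 17.3 and 15.1 CPM at P56, against 20.4, 14.4 and 12.1 CPM at P1, and the stages overlapped (log2 fold change 0.11 ± 0.276). Its host was called higher (0.57 ± 0.146, adjusted p = 0.0316, edgeR). Snord82, in the nucleolin gene Ncl, had 12.3, 26.3 and 8.16 CPM at P56, against 7.39, 13.7 and 8.93 CPM at P1, with overlap (0.77 ± 0.342, adjusted p = 0.184, edgeR).

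Among members with other hosts, the H/ACA genes Snora2b and Snora31 were nearest the threshold. Snora2b, in Kansl2, a gene of a histone acetyltransferase complex, had 14.1, 31.6 and 16.3 CPM at P56, against 12.6, 10.96 and 10.5 CPM at P1. P56 replicate 2 was about as high as the other adult libraries together, and the log2 fold change was 0.90 ± 0.296 (adjusted p = 0.0841, edgeR). Without P56 replicate 1 it passed (1.13, adjusted p = 0.0286), and without P56 replicate 2 it was 0.40 (adjusted p = 0.609). Snora31, in Tpt1, had 22.02, 31.6 and 24.5 CPM at P56, against 15.2, 17.1 and 15.2 CPM at P1, again without overlap (0.73 ± 0.254, adjusted p = 0.0969, edgeR). Snord7 had the lowest value of the 27, -0.54 ± 0.466, with 2.64, 14.3 and 1.17 CPM at P56, against 11.3, 6.17 and 11.6 CPM at P1. P56 replicate 2 was far above the other adult libraries.

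Hosts as a group gave 15 of 17 log2 fold changes above 0 at P56 against P1, with a median of 0.57. Their median level was 33.1 CPM. In the third and highest quartiles of all regions by mean CPM, 63.1% and 78.9% were above 0, with medians of 0.12 and 0.26. Of the 17 hosts, 3 were called higher, against 1.72% of all regions. They were Eef2, Eif4g1 and Srcap (0.90 ± 0.247, adjusted p = 0.0439, edgeR), a chromatin remodeller and the host of Snora30. None fell. These calls were not firm. Leaving out P1 replicate 1 or 2, any P14 library, or P56 replicate 2 or 3 left 0 hosts called, and with P1 replicate 1 and P56 replicate 2 both left out the median was 0.10. For 13 of the 18 members with a tested host, member and host lay on the same side of 0. Snord72 and Rpl37, Snord7 and its host AA465934, Snora23 and Ipo7, Snord92 and Wdr43, and Snord116l17 and Snhg14 lay on opposite sides.

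**Figure D4:**
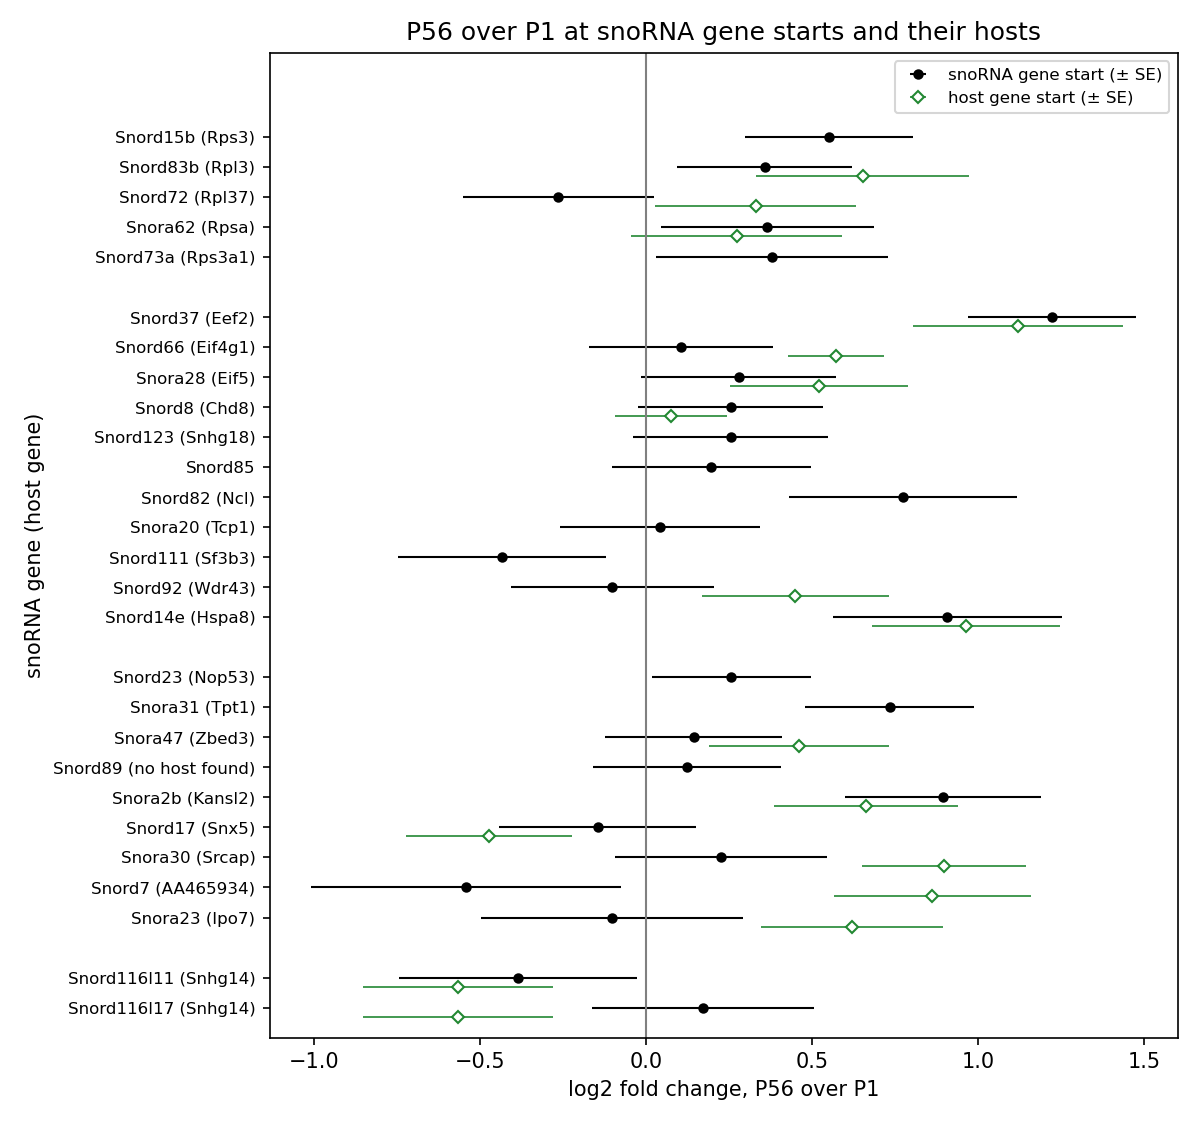
Log2 fold change of P56 over P1 with its standard error for each snoRNA gene start (filled points) and, where given, its host's start (open diamonds), grouped by host class. Snord37 and Eef2 lie farthest right, at 1.22 and 1.12, and Snhg14 lies at -0.57.

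The named copies of the imprinted repeats were not called, and the 2 did not share a direction. Snord116l11, at chr7:59902213-59902306, had 7.93, 7.52 and 6.99 CPM at P56, against 8.69, 6.85 and 13.7 CPM at P1, and the newborn libraries were the more spread (-0.39 ± 0.358, adjusted p = 0.548, edgeR). Snord116l17, at chr7:59861731-59861824, had 10.6, 7.52 and 12.8 CPM at P56, against 8.26, 10.3 and 8.40 CPM at P1 (0.17 ± 0.335, adjusted p = 0.794, edgeR). Both genes are 94 bp long, and in each the libraries of the stages overlapped.

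Unnamed snoRNA genes of the same interval all had fitted values below 0 at P56 against P1. RefSeq places 206 snoRNA genes inside Snhg14, of which 25 were rows, the 2 named copies and 23 unnamed genes, and 22 of the unnamed were tested. Their summed level was 218, 145 and 219 CPM in the P56 libraries, against 283, 278 and 287 CPM in the P1 libraries, with 251, 243 and 252 CPM at P14. No P56 library reached any P1 library. At P56 against P1, 0 of 22 had a log2 fold change above 0 and the median was -0.57, against -0.39 for the lowest quartile of all regions, which held 18 of the 22. Mean counts of the 22 ran from 10.1 to 20.6, and no row of the deposited table had a mean under 10. P1 libraries were mostly deeper than P56 libraries, so a gene with high P1 counts could become a row more easily. The part of this selection in the lower values was not tested. Unnamed snoRNA genes elsewhere in the genome had a median of -0.15 over 585 regions. Without P56 replicate 2 the median inside Snhg14 was -0.39, with 4 of 22 above 0.

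Of the 22, 1 gene fell at the threshold, Gm26097, where 0.806% of all regions were called lower. An unadjusted p below 0.05 by edgeR was found for 7, all lower at P56. Of all 33747 regions, 7278 (21.6%) had such a p in either direction, and 3802 of these were higher. Gm26097 had 9.69, 6.02 and 4.66 CPM at P56, against 20.9, 19.2 and 18.9 CPM at P1, and its stages stood well apart (-1.50 ± 0.328, adjusted p = 0.0139, edgeR). Without P56 replicate 2, and without P56 replicate 3, no gene of the 22 was called, and DESeq2's Wald test and an adjusted p below 0.01 gave no call either. The annotated genes came in 2 lengths. The 8 of 79 bases, at chr7:59360760-59619095, had a median log2 fold change of -0.59, and the 14 of 90 to 94 bases, at chr7:59673461-59859307, had one of -0.57.

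Genes around the repeats gave 1 call, a lower one, where 0.806% of all regions were called lower. Of 12 tested genes of the mouse Prader-Willi and Angelman region, none had a log2 fold change above 0 at P56 against P1, and the median was -0.43. Over all regions 16635 of 33747 were above 0. The median level of the 12 genes was 26.9 CPM, in the third quartile of regions, where 63.1% were above 0 with a median of 0.12. Only Oca2, a melanosome transporter gene at the edge of the region, fell (27.3, 21.1 and 22.1 CPM at P56, against 52.6, 40.4 and 38.9 CPM at P1; -0.91 ± 0.249, adjusted p = 0.0438, edgeR). In 7 of the 9 fits that left out a library no gene of the region was called, nor was any with DESeq2's size factors, with DESeq2's Wald test or in a fit of only the 2 stages. Snhg14 had 13.2, 20.3 and 25.6 CPM at P56, against 35.6, 23.3 and 26.3 CPM at P1, which overlapped by a single P56 library (-0.57 ± 0.286, adjusted p = 0.246, edgeR). Ndn, a paternally expressed gene, had -0.95 ± 0.364 (adjusted p = 0.131, edgeR). Ube3a, expressed from the maternal chromosome in neurons, had -0.00057 ± 0.203, with 61.7, 94.1 and 65.2 CPM at P56, against 60.0, 78.1 and 85.6 CPM at P1.

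Juvenile and newborn cells were compared next. No member was called at P14 against P1 by edgeR, DESeq2 or limma-voom, where 0.0119% of all regions were, and 3 members had an unadjusted p below 0.05, against 8.59% of all regions. Of the log2 fold changes 10 of 27 were above 0, with a median of -0.11. That median was -0.40 without P14 replicate 1, -0.26 without P14 replicate 3 and -0.23 without P1 replicate 1. Libraries did not overlap for 1 member higher and 6 lower, against 9.02% and 7.87% of all regions. Snord23, in Nop53, a ribosome biogenesis gene, had 51.1, 59.1 and 49.2 CPM at P14, against 32.6, 34.9 and 28.4 CPM at P1, so every P14 library was higher (0.73 ± 0.249, adjusted p = 0.492, edgeR). Snord83b, in the ribosomal protein gene Rpl3, had 10.0, 6.33 and 6.15 CPM at P14, against 14.3, 21.2 and 18.9 CPM at P1 (-1.15 ± 0.386, adjusted p = 0.492, edgeR). These P14 levels rested on 9, 3 and 3 counts. Class medians were -0.13 for ribosomal protein hosts, -0.11 for other housekeeping hosts, 0.01 for other members and -0.41 for Snord116.

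Between adult and juvenile cells no member was called by edgeR, DESeq2 or limma-voom, where 0.00296% of regions were called by edgeR. An unadjusted p below 0.05 by edgeR was found for 4 of 27 members, all higher at P56. Of all 33747 regions, 3402 (10.1%) had such a p in either direction, and 2037 of these were higher. The log2 fold changes were above 0 for 23 of 27, with a median of 0.56, against -0.02 over all regions. The median was 0.33 without P56 replicate 2, and 0.30 with P1 replicate 1 also left out, where 17 of the 21 members tested were above 0. Libraries did not overlap for 5 members higher and 2 lower, against 7.00% and 6.96% of all regions. Snord83b again stood at the head, with 22.02, 28.6 and 16.3 CPM at P56, against the P14 values above (1.51 ± 0.389, unadjusted p = 0.00048, adjusted p = 0.275, edgeR). Its host Rpl3 had 0.55 ± 0.403 in the same comparison. Snora62, in Rpsa, had 12.3, 13.5 and 22.1 CPM at P56, against 7.77, 10.5 and 2.05 CPM at P14, without overlap (1.141 ± 0.464, adjusted p = 0.407, edgeR). All 11 members with other housekeeping hosts were above 0. This comparison and the one before it share the P14 libraries, which were the shallowest, and depth moved with both.

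Genes for the proteins that build snoRNA particles gave no call in the fit of all 9 libraries. The list held the core C/D and H/ACA proteins, assembly factors and processing enzymes, and 26 were tested. At P56 against P1 none passed and 9 had an unadjusted p below 0.05 by edgeR, with 21 of 26 above 0 and a median of 0.35, while 21.6% of all regions had such a p. Of those 9, 7 were higher at P56, while the processing genes Tgs1 (-0.54) and Xrn2 (-0.51) were lower. Among the 9 processing genes tested 5 were above 0, with a median of 0.10. The 26 genes had a median level of 26.8 CPM, and 23 of them lay above the median of all regions. In the third and highest quartiles of all regions by mean CPM, 63.1% and 78.9% were above 0, with medians of 0.12 and 0.26. Without P56 replicate 2, 15 of 26 were above 0 with a median of 0.17, and with P1 replicate 1 also left out 16 were, with a median of 0.087. Nop56, a core C/D protein, had 0.86 (adjusted p = 0.115, edgeR), Nhp2l1, which binds the C/D fold first, had 0.75 (adjusted p = 0.128), and Znhit3, an assembly factor, had 0.78 (adjusted p = 0.0709). All 8 core protein genes were above 0. DESeq2 and limma-voom called none either. A replicate block gave 2 genes called higher, the fit without P56 replicate 1 gave 2 higher, the one without P1 replicate 3 gave 1 higher, and that without both P1 replicate 1 and P56 replicate 2 gave 1 lower.

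Peaks of the deposited peak list lay close to few members. A peak lay within 1 kb of 3 of 27 (11.1%), against 238 of 610 rows of unnamed snoRNA genes (39.0%) and 1 of 23 unnamed genes inside Snhg14 (4.35%). Within 5 kb the order of the first 2 was the other way round, with 14 of 27 named (51.9%) and 277 of 610 unnamed rows (45.4%). Snora62 lay inside the peak chr9:120129752-120131518, in the body of Rpsa. That peak had 26.3, 35.8 and 46.8 CPM at P56, against 30.4, 35.5 and 26.2 CPM at P1. Snord23 lay inside chr7:15938172-15941205, which had 86.7, 54.7 and 100.2 CPM at P56, against 82.3, 93.2 and 62.2 CPM at P1. The peak nearest Snord116l17, at 485 bp, was chr7:59857219-59861246, with 36.8, 16.02 and 36.7 CPM at P56, against 32.9, 31.1 and 36.0 CPM at P1. P56 and P1 libraries overlapped at all 3 peaks, and none was called in any comparison by edgeR, with 1 unadjusted p below 0.05, at Snora62 for P56 against P14. Over the list 0.444% of 25885 peaks were called at P56 against P1 and 0.00773% in each of the others.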

How the data were processed

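Per the file headers and labels, the authors deposited unnormalised read counts for 9 libraries, 1 table of TSS regions and 1 of peaks. Per the submitters' processing notes, the build was GRCm38 and the tools were featureCounts 1.4.2, MACS 1.4.0, BWA 0.7.10, bedtools 2.26, bcl2fastq 2.17.1.14 and SAMtools 1.3.1; roles, read filters and region width are not given in the sources used here.

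edgeR 4.0.16 in R 4.3.3 fitted each table whole, with TMM scaling, the default expression filter, 1 coefficient per stage over all 9 libraries, and two-sided quasi-likelihood F tests adjusted by Benjamini-Hochberg over all regions, with a threshold of 0.05. CPM used the TMM library sizes. The fit was run on simulated counts drawn independently for each library from its own mean levels and spreads. That run held no library that stands apart, so it cannot show how such a library affects the calls. P-values set a difference between stages against the spread between pooled samples of the same stage, estimated over all 9 libraries. Whether the labels' replicate numbers pair samples is not known, and the main fit did not pair them. Alternatives used DESeq2 1.42.0 and limma 3.58.1.

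Described members were those called, and in each class the 2 highest by mean CPM and the 2 with the smallest p at P56 against P1; Snord7, Snord82, Snora62 and Gm26097 were named after their values were seen. Members and lists were chosen with earlier results of these data known. Hosts and distances came from RefSeq on GRCm38.p6, whose gene table gives no strand. The host of 1 member is not reported here.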

Additional observations from a re-analysis of the deposited data

How the results depend on the processing

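Across 19 other settings Snord37 stayed above 0 (log2 fold change 0.97 to 1.45, adjusted p 0.000556 to 0.0637) and was called in 16. No member was called in the other comparisons under any setting. At an adjusted p below 0.01, 0 members were called at P56 against P1, and leaving out libraries gave 0 to 2. The fits that left out P1 replicate 2 or P56 replicate 2 gave 0, and the one without P56 replicate 1 gave 2.

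With a mean count of at least 20, which left 2 ribosomal protein, 1 other housekeeping (Snord37) and 3 other members, class medians were 1.07 for other housekeeping hosts at P56 against P1, -0.51 and 0.41 for ribosomal protein and other housekeeping hosts at P14 against P1, and 0.81 and 0.10 for ribosomal protein hosts and other members at P56 against P14. Fits of only the 2 stages gave -0.46 for ribosomal protein hosts at P14 against P1, and 0.67 and 0.14 for these and other members at P56 against P14. Without both P1 replicate 1 and P56 replicate 2, medians were 0.079 and -0.086 (ribosomal protein and other housekeeping hosts, P56 against P1), -0.60 and 0.17 (ribosomal protein hosts and other members, P14 against P1), and 0.76, 0.33 and 0.13 (ribosomal protein, other housekeeping and other, P56 against P14); both Snord116 copies failed the filter there. The cause was not tested.

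Leaving out each library in turn gave these ranges of the class median. At P56 against P1 they were 0.18 to 0.46 for ribosomal protein hosts, 0.09 to 0.32 for other housekeeping hosts, 0.08 to 0.26 for other members and -0.20 to 0.13 for Snord116. At P14 against P1 they were -0.93 to -0.12 for ribosomal protein hosts, -0.56 to -0.064 for other housekeeping hosts, -0.20 to 0.13 for other members and -0.74 to -0.36 for Snord116. At P56 against P14 they were 0.11 to 1.297 for ribosomal protein hosts, 0.38 to 0.75 for other housekeeping hosts, 0.18 to 0.58 for other members and 0.24 to 0.88 for Snord116.

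Members 2 kb or more from their host's start had class levels of 12.4, 13.4 and 12.0 CPM at P1 (ribosomal protein, other housekeeping, other) and 10.3 CPM for other members at P14. Where the host's start was not known, its nearer end was used. With the unnamed snoRNA genes of Snhg14, an alternative added after seeing the data, Snord116 stood at 12.1 CPM at P1 and 10.6 CPM at P14. A peak lay within 5 kb of 14 members (51.9%), against 45.4% of unnamed snoRNA rows. Snord115 with Snord116 was not run, since no gene has a Snord115 symbol.

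Over all regions, 581 were called higher and 272 lower at P56 against P1. A replicate block gave 1387 and 595, with 1 member called. Samples of the same number correlated at -0.07 to 0.20 in their deviations, which cannot settle whether the numbers pair samples. An adjusted p below 0.01 gave 86 and 2, the 2 stages alone 142 and 43, DESeq2's Wald test 289 and 3, a mean count of at least 20 gave 153 and 117, and leaving out libraries gave 122 to 1164 higher and 25 to 359 lower. Library size alone gave 319 and 778, moved the median of all regions to -0.14, and left 17 of 27 members above 0. Depth limits single members most at P14.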
